A study of Gallus gallus with 32 samples.

Results

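The genes described here copy the DNA of a dividing cell and pull the copies apart. They were taken by symbol from the gene table of the study: every symbol that starts with CENP, NCAP, GINS, AURK, BUB1, CCNA, CCNB, CCNE or ORC, together with the mitotic kinesins of the KIF family, MCM followed by a digit, CDK1, CDC20, CDC45, TOP2A, PCNA, PLK1, TTK and RRM2. This gave 53 of 24881 rows of the count table, of which 10132 rows carried a symbol. The genes were grouped into roles by symbol: 12 centromere and kinetochore, 12 origin licensing, 6 cyclins and CDK1, and 6 mitotic kinases and checkpoint. A further 5 were grouped as helicase activation, 5 as mitotic kinesins, 3 as condensin and 3 as replication factors. AURKAIP1, taken in by its prefix, was set apart because its product works mainly outside the division machinery. CENPJ, a centriole assembly factor, stayed in the centromere group by its prefix. MCM8 and MCM9, which serve homologous recombination in mammals, likewise stayed in the licensing group. No row with the symbol MKI67, CDC6, AURKB, KIF4A, MCM4 or MCM7 was matched, and those genes were not analysed here.

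Before a cell divides, the origin recognition complex (ORC) and the MCM helicase are loaded onto DNA in G1. CDC45 and the GINS complex then switch the helicase on, ribonucleotide reductase supplies deoxynucleotides, and the sliding clamp PCNA holds the polymerases in place. In mitosis, CDK1 with cyclin B starts chromosome condensation, kinetochores built on CENP-A chromatin attach chromosomes to the spindle, and BUB1, TTK and the Aurora and Polo kinases control the checkpoint and the segregation. Most of these transcripts are made mainly in cycling cells. The adult anterior pituitary keeps renewing its hormone cells slowly, whereas most hypothalamic neurons no longer divide, and glia and blood vessel cells are the main dividing cells there.

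RNA-seq was carried out on the pituitary and the whole hypothalamus of 16 male ROSS308 cockerels, a commercial fast-growing broiler. There were 4 birds of low growth rate (LGR, "light" in the labels) and 4 of high growth rate (HGR, "heavy") at 6 weeks of age (42 days in the labels), and 4 LGR and 4 HGR birds at 3 weeks (22 days). Ages are those given as the day of each sample, while the sample titles carry other, lower day numbers and the study's methods a slightly later day for the 6-week birds. Each bird gave 1 library per tissue, which makes 32 libraries, and replicates are separate birds. According to the study's methods, chicks were classed as lighter or heavier by body mass after the second week, the classes were kept in separate pens on the same feed ad libitum, and feed was withdrawn shortly before slaughter. Growth group and pen therefore cannot be told apart, nor can age and the day of slaughter. All birds were of 1 sex and 1 commercial hybrid, and no treatment was applied. In whole-tissue libraries such as these, fewer cells of a type and less RNA per cell cannot be told apart.

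Assigned counts ranged between 6231478 and 18256297 per pituitary library and between 13845756 and 17536175 per hypothalamus library. The shallowest library, that of 3-week LGR pituitary replicate 4, stood apart from the other pituitary libraries of its age. Its mean distance to them on the log2 scale was 114.75. Each other pituitary library, also measured against those of its own age, had a mean distance of 41.8 to 56.3. The 3-week values among these include the distance to the shallowest library. Its summed pituitary hormone markers reached 172661 CPM (counts per 1000000 counts of a library total scaled by the TMM method). Several counts and values of comparisons that include it are also given without it. The labelled tissues held their markers: all 6 pituitary endocrine markers with a symbol were higher in the pituitary (median log2 fold change 8.45) and all 6 neuronal markers were lower there. Summed pituitary endocrine markers in hypothalamus libraries reached at most 0.624% of the pituitary median at 6 weeks and 1.19% at 3 weeks. These markers include POMC, which the study's authors also describe in the hypothalamic arcuate nucleus. They lack GH, PRL, LHB and POU1F1, for which no symbol was matched. That share is therefore not a measure of pituitary cells alone.

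Summed over the 53 genes, the pituitary held more of these transcripts than the hypothalamus in every library, and both tissues held less at 6 weeks. The lowest, median and highest pituitary sums at 6 weeks were 870, 1094 and 1367 CPM, against 1187, 1428 and 1640 CPM at 3 weeks. In the hypothalamus the corresponding sums at 6 weeks were 494, 531 and 617 CPM, against 559, 643 and 701 CPM at 3 weeks. The group means at 6 weeks were thus lower by 23.8% in the pituitary and by 14.9% in the hypothalamus, with some overlap of single birds between ages in both tissues.

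**Figure D1:**
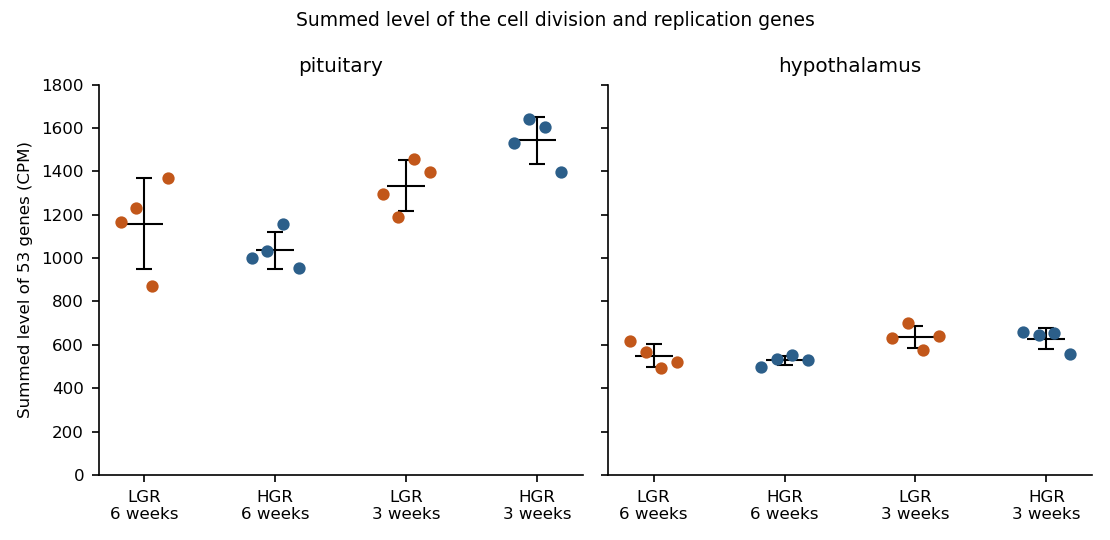
Summed level of the 53 genes per library (CPM, vertical axis) for each tissue, growth group and age, with 1 point per bird and the group mean ± SD (n = 4). Every pituitary point lies above every hypothalamus point, and the HGR pituitary means are 1036 CPM at 6 weeks and 1542 CPM at 3 weeks.

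The first comparison asked how the machinery of division differs between the pituitary and the hypothalamus of the same birds. A gene was called where the Benjamini-Hochberg adjusted p of edgeR's quasi-likelihood test was at most 0.05 and the fold change at least 1.5. Of the 53 genes, 45 were higher in the pituitary and 0 lower, against 25.7% of all 16169 genes tested that were higher and 27.8% that were lower. By DESeq2 the counts were the same, 45 and 0. At an unadjusted p under 0.05 they were 48 higher and 2 lower, against 42.2% and 39.1% of all genes. The median log2 fold change of the 53 was 1.40, against 0.05 over all genes. For 23 genes every pituitary library lay above every hypothalamus library, a pattern shown by 13.1% of all genes.

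Among the replication factors, RRM2, the small subunit of ribonucleotide reductase, had the largest difference of all 53. Its lowest, median and highest levels were 20.1, 65.1 and 115 CPM in the pituitary, against 4.17, 8.22 and 15.8 CPM in the hypothalamus, and the log2 fold change was 2.92 ± 0.15 (SE, 16 libraries each). The 2 tissues did not overlap. TOP2A, the topoisomerase that untangles replicated DNA, was higher by 1.65 ± 0.13, at 26.2, 55.1 and 88.5 CPM against 10.0, 17.5 and 28.1 CPM. PCNA was well expressed in both tissues, with 97.2, 141 and 186 CPM in the pituitary and 71.5, 80.2 and 99.4 CPM in the hypothalamus, and was 1.71-fold higher in the pituitary. In its case the 2 highest hypothalamus libraries lay just above the lowest pituitary library.

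In the licensing group, 8 of 12 genes were higher and the median was 0.91, the smallest of any role. MCM3, a subunit of the replicative helicase, stood out with 43.8, 69.5 and 92.3 CPM in the pituitary against 6.63, 9.17 and 14.1 CPM in the hypothalamus (log2 fold change 2.82 ± 0.10). Its partners differed far less, with MCM2 at 0.89 ± 0.09 and MCM5 at 1.21 ± 0.07. ORC4 (log2 fold change -0.26), ORC5 (-0.04), ORC6 (0.11) and MCM8 (0.50) were not called. ORC1, ORC2, ORC3 and MCM9, of the same families, were called higher. Why the others were not called was not tested. Of the helicase activators 4 of 5 were higher, including CDC45 (1.56 ± 0.10), while GINS3 at 0.25 was not called.

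The mitotic genes differed most uniformly. All 6 kinase and checkpoint genes, all 5 kinesins and all 3 condensin genes were higher in the pituitary, with medians of 1.84, 1.70 and 1.59. CDK1, the kinase that starts mitosis, had 25.0, 47.4 and 76.1 CPM against 5.90, 13.1 and 20.8 CPM, a log2 fold change of 2.04 ± 0.12 with no overlap between tissues. BUB1 (1.89 ± 0.13) and AURKA (1.79 ± 0.12), both needed for correct chromosome attachment, the kinetochore protein CENPF (1.78 ± 0.12), the condensin subunit NCAPG (1.73 ± 0.11), the spindle motor KIF11 (1.70 ± 0.15) and cyclin CCNB2 (1.33 ± 0.08) were all called. CENPA, the centromeric histone H3, had a log2 fold change of 2.81 ± 0.27 on few counts, with 7 to 54 counts per pituitary library and 1 to 9 per hypothalamus library. CENPK (0.54) was the 1 centromere gene of 12 that was not called.

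The A-type cyclins went different ways. CCNA1, known in mammals mainly from germ cells, was higher in the pituitary by 1.96 ± 0.17. At 6 weeks alone its value was 2.73, which lay 1.55 above that at 3 weeks. EdgeR did not call this difference in the main fit, but did with the bird as a block, at 1.67 (adjusted p 0.0457). CCNA2, the cyclin A of S phase and mitosis in somatic cells, was at 7.69, 12.2 and 21.1 CPM in the pituitary against 15.6, 18.6 and 24.3 CPM in the hypothalamus, so that most pituitary libraries lay below all hypothalamus libraries. Its log2 fold change of -0.54 ± 0.08 had an adjusted p of 5.54e-07 in edgeR's test but missed the fold threshold. Without LGR 3-week bird 3 it passed, at -0.60. At 6 weeks alone CCNA2 was called lower in the pituitary (-0.81), and it was the only one of the 53 called in that direction.

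At 6 weeks 43 of the 53 genes were higher in the pituitary (25.5% of all genes) and 1 was lower (27.7%), and at 3 weeks 46 were higher (24.8%) and 0 lower. Blocking on the bird, which pairs its pituitary and hypothalamus library, left 45 called, and leaving out 1 bird at a time gave 45 to 46. The pituitary also held more of some other cell type markers, where 25.7% of all genes were higher and 27.8% lower. In it 6 of 8 lymphocyte genes, 3 of 3 erythroid genes and 4 of 4 fibroblast genes were higher, and 1 lymphocyte gene was lower. Markers without a matched symbol were left out, so that only 3 of 11 erythroid and 2 of 6 oligodendrocyte markers listed were counted. Of 8 microglia and macrophage genes 2 were higher and 1 lower. Of 5 endothelium genes 2 were higher and 1 lower, and of 4 pituitary stem and folliculostellate genes 1 was higher and 2 lower. The markers of astrocytes and radial glia (6 of 6), oligodendrocyte precursors (4 of 4) and oligodendrocytes (2 of 2) were all lower in the pituitary, and the part of these cells in the difference was not tested.

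**Figure D2:**
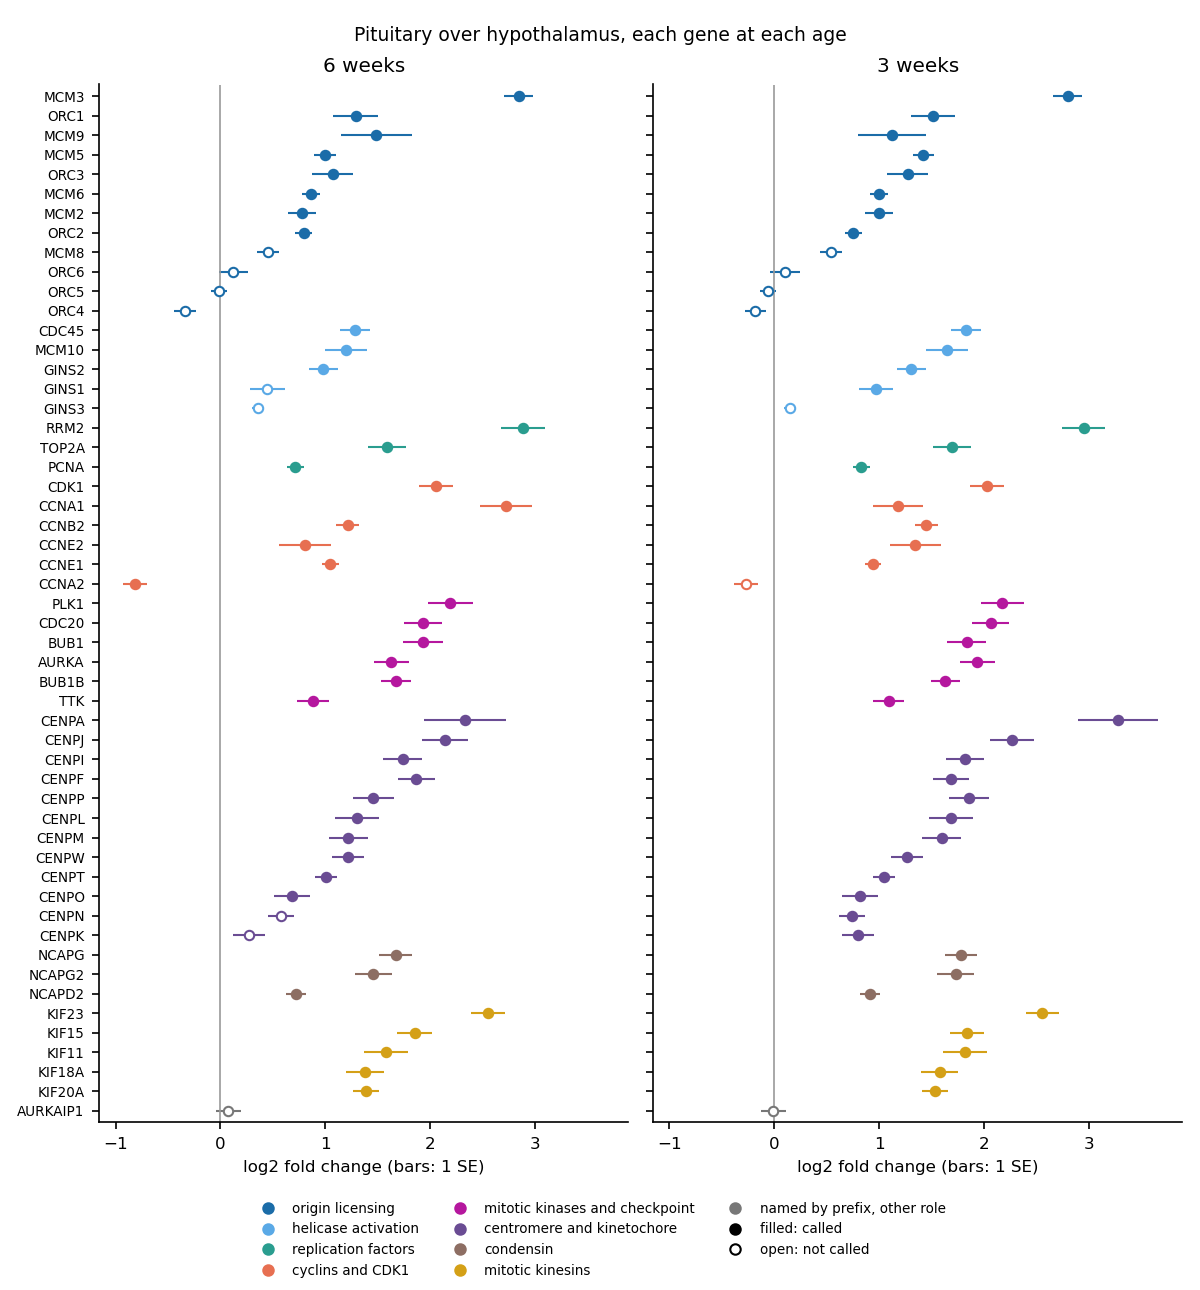
Log2 fold change (pituitary over hypothalamus, horizontal axis, with SE) of each of the 53 genes at 6 weeks and at 3 weeks, grouped by role, with filled symbols for called genes. Nearly all symbols lie to the right of 0, and CCNA2 lies left of it at both ages. RRM2 and MCM3 lie far right at both ages. CENPA lies farthest right at 3 weeks, whereas at 6 weeks CCNA1 (2.73) comes next after RRM2 and MCM3.

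The second comparison asked whether these transcripts change between 3 and 6 weeks in the pituitary. No member passed the edgeR threshold, where 0% of 15280 genes were called higher and 0.0262% lower, but the values leaned strongly 1 way. Of the 53 genes, 47 had a log2 fold change below 0, against 50.2% of all genes, and the median was -0.52, against -0.00086 for all genes. Without adjustment, 42 were lower and 2 higher at p under 0.05, against 6.42% and 4.21% of all genes. The smallest adjusted p was 0.079, for CDC45. DESeq2 called 164 of 15280 genes, 33 higher and 131 lower, and 16 of them were members: CDC45, CDK1, PLK1, AURKA, GINS1, GINS2, CDC20, CENPM, CENPK, CENPJ, CENPW, CENPL, RRM2, KIF15 and CCNE2 lower and CCNA1 higher.

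The shallow 3-week library weighed on this count. Without it edgeR called 5 of the 53, with CDC45 (-0.72), CENPJ (-0.79), GINS1 (-0.75) and KIF15 (-0.69) lower and CCNA1 (1.19 ± 0.23, adjusted p 0.041) higher, where 0.123% of 15453 genes were called lower and 0.0453% higher. Leaving out 6-week LGR replicate 3 instead gave 1 call, RRM2, leaving out 6-week LGR replicate 4 gave 1 call, MCM5, and the other omissions gave none.

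CDC45, which binds the MCM ring to form the active helicase, was at 8.93, 13.6 and 16.0 CPM at 6 weeks, against 17.6, 19.8 and 26.6 CPM at 3 weeks. All 6-week birds lay below all 3-week birds, and the log2 fold change was -0.71 ± 0.13. The same separation was seen for its partners GINS1 (-0.87) and GINS2 and for the centromere genes CENPL (-0.84) and CENPO, 5 genes in all, where 0.196% of all genes separated in this direction.

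RRM2 had 20.1, 44.8 and 66.7 CPM at 6 weeks, against 63.6, 78.5 and 115 CPM at 3 weeks (log2 fold change -0.94 ± 0.19, adjusted p 0.092). Only the highest 6-week bird reached into the 3-week range. TOP2A was at 26.2, 46.1 and 64.0 CPM, against 33.3, 69.3 and 88.5 CPM (-0.55 ± 0.19), and PCNA at 97.2, 122 and 154 CPM, against 136, 161 and 186 CPM (-0.33 ± 0.10). Both overlapped between ages, although each median was lower at 6 weeks. The lowest 3-week TOP2A value was that of the shallow library.

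CDK1 was at 25.0, 37.3 and 53 CPM at 6 weeks, against 46.5, 64.7 and 76.1 CPM at 3 weeks (-0.72 ± 0.16). Its partner CCNB2 was at 23.9, 31.5 and 39.9 CPM, against 37, 47.8 and 54.1 CPM (-0.57 ± 0.12). In both the upper end of the 6-week range met the lower end of the 3-week range. CCNA2 was at 7.69, 11.3 and 12.7 CPM, against 9.37, 16.5 and 21.1 CPM (-0.56 ± 0.14). CCNE1, a cyclin of the G1 to S transition, had a log2 fold change of 0.08 ± 0.09.

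CCNA1 ran against the rest. Its levels were 25.7, 47.6 and 70.2 CPM at 6 weeks, against 6.79, 18.3 and 31.2 CPM at 3 weeks, with a log2 fold change of 1.31 ± 0.26 (adjusted p 0.089). Only the lowest 6-week bird overlapped the 3-week birds, and the 3-week level was lowest in LGR replicate 4, the shallow library. The other member with a positive value at an unadjusted p under 0.05 was GINS3 at 0.14. CCNA1 was named after its values were seen, as were RRM2, CENPA and KIF15 in the comparisons of age and growth group where they were not called.

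The licensing factors differed least, with a median of -0.36 and 5 of 12 at an unadjusted p under 0.05. MCM2 was at 24.7, 30.5 and 37.7 CPM at 6 weeks, against 26.9, 45.6 and 53 CPM at 3 weeks (-0.48 ± 0.12). MCM5 was at 24.4, 32.6 and 45.0 CPM, against 35.5, 51.2 and 61.8 CPM (-0.56 ± 0.11). These ranges overlapped, and ORC2, ORC5, ORC6 and MCM8 were close to 0.

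Among the mitotic roles the values were even. All 12 centromere genes (median -0.60), all 6 kinase and checkpoint genes (-0.55), all 5 kinesins (-0.52) and all 3 condensin genes (-0.51) were lower at an unadjusted p under 0.05. AURKA had 6.87, 9.96 and 14 CPM at 6 weeks, against 11.1, 15.8 and 19.8 CPM at 3 weeks (-0.58 ± 0.15), and BUB1 had 6.36, 9.80 and 14.9 CPM, against 9.61, 15.2 and 20.2 CPM (-0.52 ± 0.17). CENPF had 11.3, 18.5 and 27.3 CPM, against 12.4, 29.3 and 37 CPM (-0.50 ± 0.17). These 3 genes shared their overlap, since the lowest 3-week birds fell within the 6-week range. For BUB1 and CENPF the lowest 3-week value was that of the shallow library.

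NCAPG was at 9.92, 14.2 and 18.7 CPM at 6 weeks, against 16.2, 19.0 and 25.5 CPM at 3 weeks (-0.51 ± 0.11). KIF11 was at 9.35, 13.5 and 21.6 CPM, against 7.03, 20.3 and 26.1 CPM (-0.46 ± 0.20). Its lowest library of all was the shallow 3-week LGR library. CENPA had the largest negative value, -1.03 ± 0.33, on low counts. That rank rested on the shallow 3-week library. Without it the lowest centromere gene was at -0.86 and RRM2 was lower, at -0.94.

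**Figure D3:**
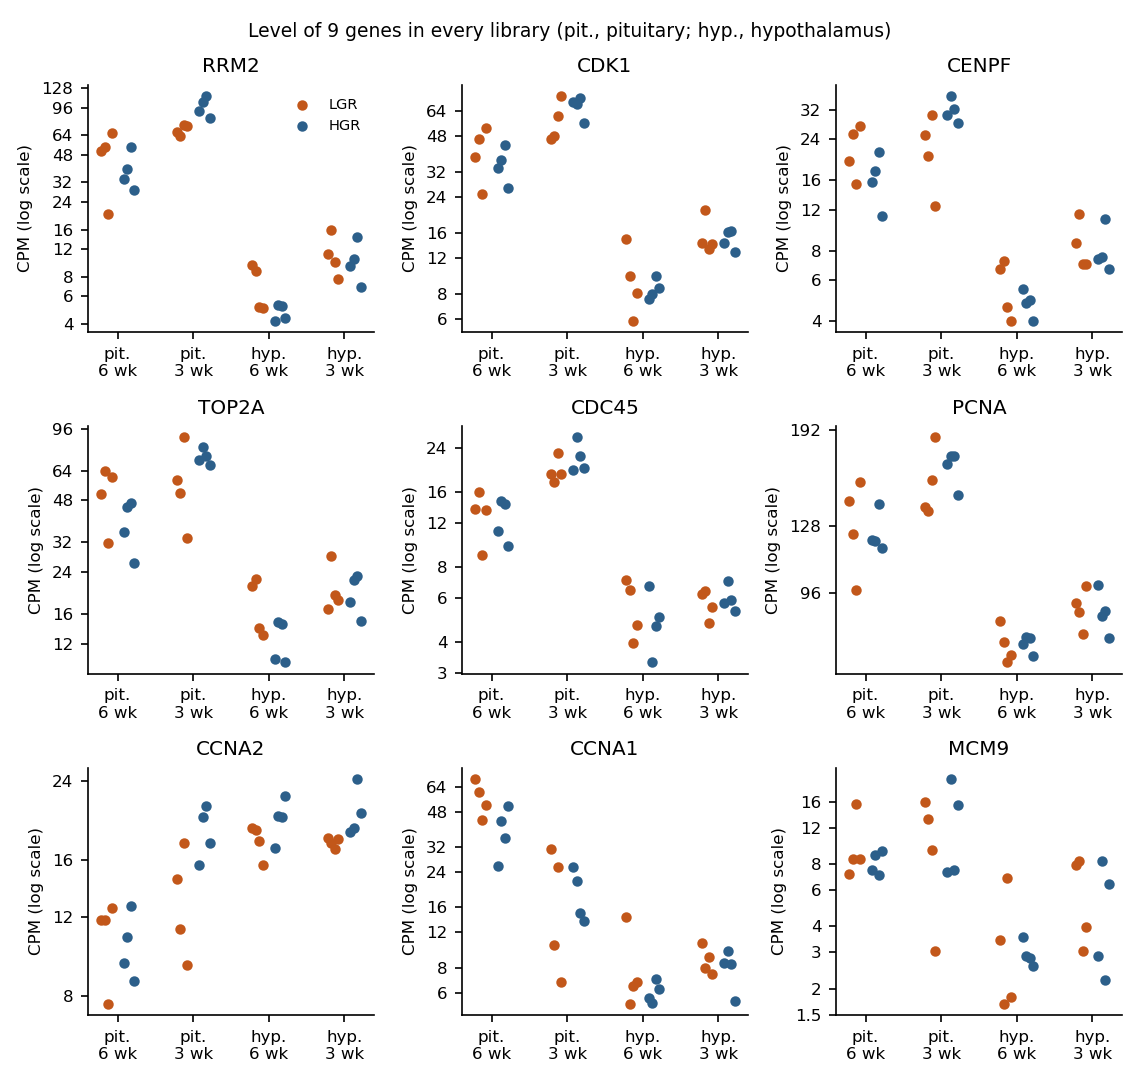
Level (CPM, log axis) of RRM2, CDK1, CENPF, TOP2A, CDC45, PCNA, CCNA2, CCNA1 and MCM9 in every library by tissue and age, with LGR birds left in orange and HGR birds right in blue. In the pituitary CDC45 lies at 8.93 to 16.0 CPM at 6 weeks and 17.6 to 26.6 CPM at 3 weeks, while CCNA1 lies at 25.7 to 70.2 CPM and 6.79 to 31.2 CPM.

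The age difference in the pituitary was then taken within each growth group. In LGR birds the summed level was 1158 ± 210 CPM at 6 weeks and 1334 ± 119 CPM at 3 weeks (SD, n = 4 each), a difference of -13.2%, and the median log2 fold change was -0.25. In HGR birds the sums were 1036 ± 85.7 CPM and 1542 ± 108 CPM, a difference of -32.9%, and the median was -0.81. At an unadjusted p under 0.05, 8 of the 53 genes were lower and 1 higher in LGR birds (7.54% and 3.66% of all genes), and 42 were lower and 2 higher in HGR birds (3.87% and 2.01%). EdgeR called 0 members in either group, where 0.00654% of all genes were called lower in each and 0% higher. DESeq2 called 1 member in LGR birds, CCNA1, of 36 genes called, and 29 in HGR birds, all lower, of 151 genes called, 139 of them lower. The LGR values depended on single libraries. Leaving out 1 library, the number lower at an unadjusted p under 0.05 was between 3 (without 6-week LGR replicate 3) and 20 (without 6-week LGR replicate 4) in LGR birds, with medians of -0.15 and -0.35 in those fits, and 4 without the shallow library. In HGR birds it was between 39 and 42.

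TOP2A illustrates the contrast. In LGR birds it was at 51, 64.0, 31.7 and 60.4 CPM at 6 weeks, against 58.6, 51.6, 88.5 and 33.3 CPM at 3 weeks, with overlapping ranges. In HGR birds it was at 35.5, 45.2, 47.0 and 26.2 CPM at 6 weeks, against 71.1, 80.8, 73.7 and 67.4 CPM at 3 weeks, and these ages did not overlap. The log2 fold changes were -0.17 in LGR and -0.93 in HGR birds. CENPF (-0.03 in LGR and -0.96 in HGR birds), KIF11 (-0.01 and -0.90) and KIF15 (-0.06 and -1.16) had the same form with all libraries. Without the shallow 3-week LGR library the LGR values were -0.35 for TOP2A, -0.21 for CENPF, -0.22 for KIF11, -0.22 for KIF15 and -0.34 for CDK1, none of them called. RRM2 (-0.54 and -1.35) and CDK1 (-0.50 and -0.95) were below 0 in both groups, and CCNA1 was above 0 in both (1.59 and 1.04).

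The difference itself was tested as an interaction, the age change in LGR birds minus that in HGR birds. No member was called by edgeR or by DESeq2, where edgeR called 0% of all genes in either direction. In all, 18 members were higher at an unadjusted p under 0.05, that is less negative in LGR birds, and 0 lower, against 2.71% and 1.77% of all genes. The median was 0.45, against -0.01 over all genes. KIF15, a motor of the mitotic spindle, had the largest value, 1.10 ± 0.31 (unadjusted p 0.00323, adjusted p 0.633), followed by CCNE2 (0.97) and CENPJ (0.95). By role the medians were 0.78 for kinases and checkpoint, 0.76 for replication factors, 0.71 for condensin, 0.64 for kinesins, 0.50 for cyclins and CDK1, 0.39 for the centromere, 0.26 for licensing and 0.21 for helicase activation. Leaving out 1 library at a time, the number higher at an unadjusted p under 0.05 ranged between 7 and 26.

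Of the genes followed in every comparison, the interaction was 0.76 for TOP2A, 0.45 for CDK1, 0.34 for CCNB2, 0.56 for CCNA2, 0.16 for PCNA, 0.44 for MCM2, 0.53 for MCM5 and 0.24 for CDC45. It was 0.83 for BUB1, 0.75 for AURKA, 0.94 for CENPF, 0.71 for NCAPG and 0.89 for KIF11. All were above 0, and the adjusted p of each was at least 0.633. Without the shallow library, which is in the 3-week LGR group, 5 members were called lower in HGR birds, namely CENPJ, KIF15, MCM5, MCM6 and NCAPG (0.201% of all genes), and leaving out 6-week LGR replicate 3 also gave 5. In HGR pituitaries all 8 lymphocyte markers had a value below 0 between 6 and 3 weeks, with a median of -1.16, and erythroid markers had a median of -2.04. In LGR pituitaries all 8 lymphocyte markers were above 0, with a median of 1.07, and 7 were higher at an unadjusted p under 0.05. Erythroid markers had a median of 0.16 there. In the interaction the lymphocyte median was 2.20 and the erythroid median 2.05. All 8 lymphocyte markers were higher at an unadjusted p under 0.05, and edgeR called 0 of them and DESeq2 5. The part of these markers in the result was not tested.

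**Figure D4:**
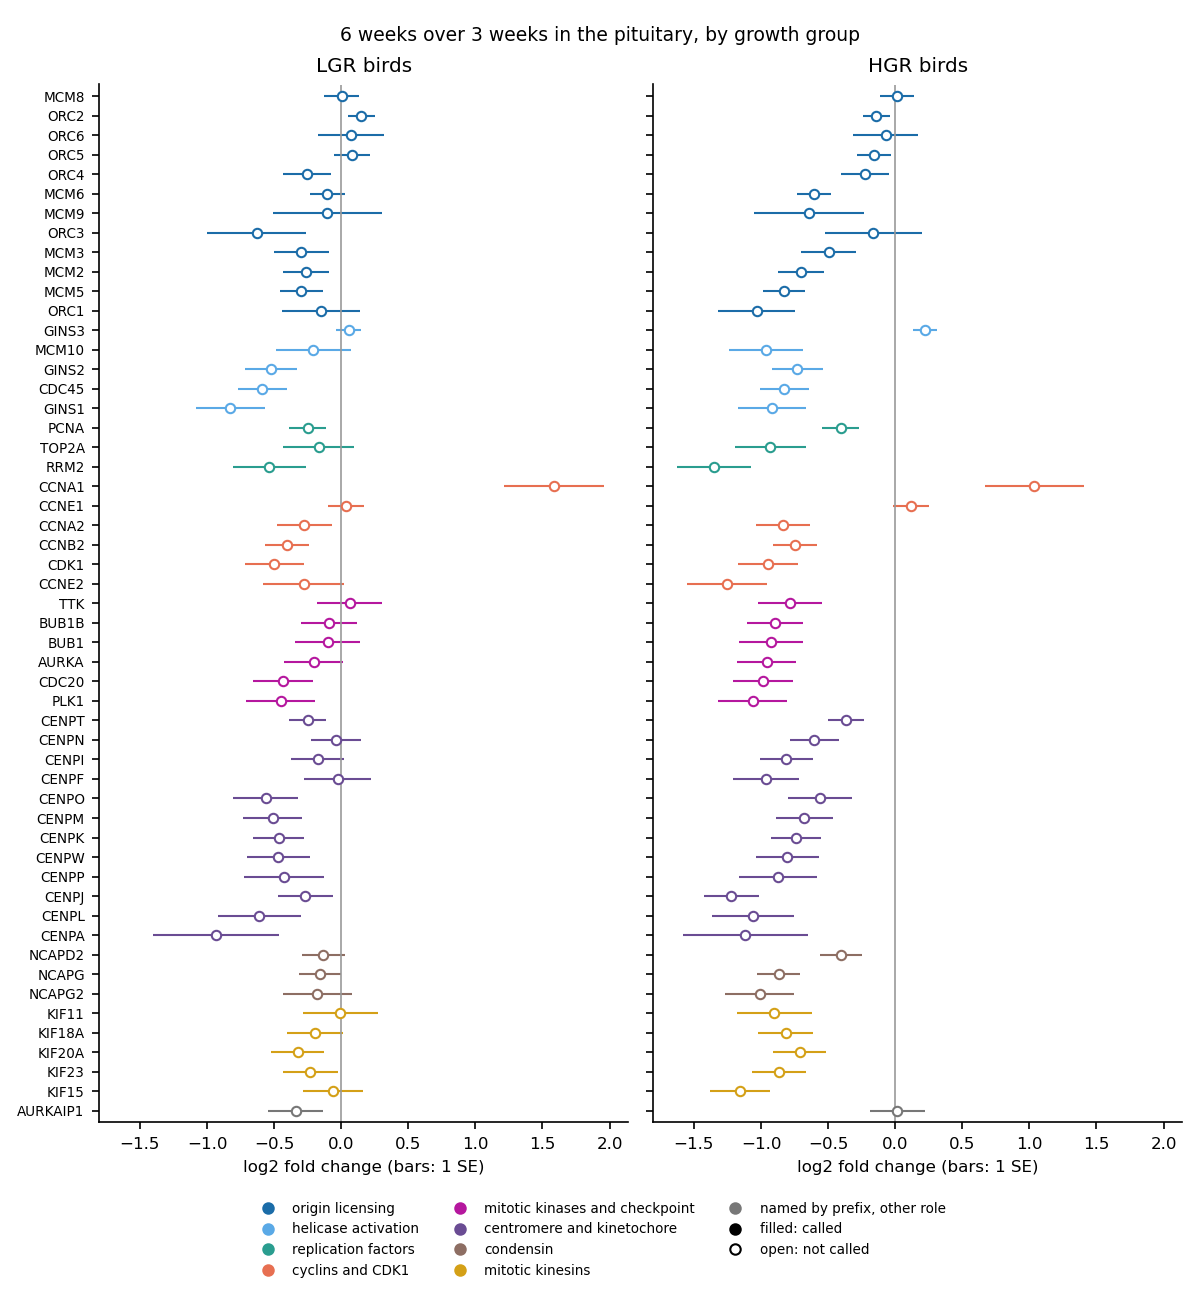
Log2 fold change (6 weeks over 3 weeks, with SE) of each of the 53 genes in the pituitary of LGR birds and of HGR birds, grouped by role. The LGR values have a median of -0.25 and the HGR values a median of -0.81, and CCNA1 lies right of 0 in both.

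In the hypothalamus, 52 genes passed the filter on low counts and CENPA did not. RRM2, CDK1 and CENPF fell between 3 and 6 weeks and no member rose, against 0.363% of 15414 genes called lower and 0.26% higher. RRM2, encoded on chromosome 3 (96931859 to 96936929 in the authors' gene table), was at 4.17, 5.13 and 9.53 CPM at 6 weeks, against 6.84, 10.1 and 15.8 CPM at 3 weeks, a log2 fold change of -0.88 ± 0.19 with an adjusted p of 0.034. CDK1 (chromosome 6, 8734947 to 8742973) was at 5.90, 8.34 and 14.9 CPM, against 12.9, 14.3 and 20.8 CPM (-0.75 ± 0.16, adjusted p 0.030). CENPF (chromosome 3, 21044044 to 21078629) was at 4.00, 4.82 and 7.19 CPM, against 6.67, 7.44 and 11.5 CPM (-0.68 ± 0.16, adjusted p 0.043). In each of the 3 genes the highest 6-week birds overlapped the lowest 3-week birds.

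As in the pituitary, the values leaned downward: 51 of 52 were below 0, against 51.1% of all genes, with a median of -0.27, against -0.0055 over all genes. At an unadjusted p under 0.05, 26 were lower and 0 higher, where 11.4% of all genes were lower. The medians were -0.56 for the kinases and checkpoint genes, -0.44 for replication factors, -0.41 for the centromere, -0.38 for kinesins and -0.32 for condensin, against -0.16 for both licensing and helicase activation. CENPW (-0.58) and BUB1B (-0.54) had an adjusted p under 0.05 but missed the fold threshold.

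The remaining genes followed in every comparison were not called. TOP2A was at 10.0, 14.2 and 22.5 CPM at 6 weeks, against 15.0, 18.8 and 28.1 CPM at 3 weeks (-0.44 ± 0.15), and BUB1 was at 1.49, 2.36 and 4.70 CPM, against 3.28, 3.85 and 5.80 CPM (-0.61 ± 0.19). PCNA was at 71.5, 77.5 and 85.2 CPM, against 79.2, 88.8 and 99.4 CPM (-0.21 ± 0.06). NCAPG was at 3.15, 4.38 and 5.42 CPM, against 3.91, 5.56 and 9.75 CPM (-0.40 ± 0.19). Each of these had a lower median at 6 weeks and overlapping ranges.

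CCNB2 was at 11.3, 13.2 and 16.9 CPM at 6 weeks, against 13.4, 17.9 and 19.5 CPM at 3 weeks (-0.33 ± 0.09). AURKA was at 1.91, 3.31 and 4.61 CPM, against 2.71, 4.09 and 5.54 CPM (-0.27 ± 0.17), and KIF11 was at 2.95, 3.76 and 8.91 CPM, against 3.56, 5.14 and 7.59 CPM (-0.22 ± 0.20). The highest KIF11 library was a 6-week one. MCM2 was at 12.6, 17.9 and 22.0 CPM, against 15.1, 21.2 and 26.2 CPM (-0.26 ± 0.13), and MCM5 was at 14.1, 17.3 and 19.6 CPM, against 14.9, 18.5 and 21.7 CPM (-0.14 ± 0.09). CDC45, which separated the ages in the pituitary, was at 3.31, 4.85 and 7.09 CPM, against 4.75, 5.81 and 7.02 CPM (-0.16 ± 0.15). CCNA2 was at 15.6, 18.8 and 22.2 CPM, against 17, 18.2 and 24.3 CPM (-0.02 ± 0.07), so that its ages coincided, and CCNA1 had a log2 fold change of -0.24 ± 0.18.

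The number of calls depended on single libraries. Leaving out 1 library gave between 0 and 6 calls: 6 without 3-week HGR replicate 4, 4 without 3-week LGR replicate 1, 3 or 4, 2 without 3-week LGR replicate 2, 1 without 6-week HGR replicate 3 or 6-week LGR replicate 3, and 0 without 3-week HGR replicate 1, 2 or 3, 6-week HGR replicate 1, 2 or 4 or 6-week LGR replicate 2 or 4. The adjusted p in these fits stayed at or under 0.074 for CDK1, 0.083 for RRM2 and 0.097 for CENPF. DESeq2 called 7 members, adding PLK1, BUB1, CENPW and KIF15, of 225 of 15414 genes called. Within LGR birds edgeR called 0 (0.182% of all genes lower and 0.461% higher) and DESeq2 1, CDK1, of 434 genes called, while 11 members were lower and 0 higher at an unadjusted p under 0.05 (11.5% and 12.7% of all genes). Within HGR birds edgeR called 0 (0% of all genes) and DESeq2 1, RRM2, of 19 genes called, while 17 members were lower and 0 higher at that level (3.37% and 2.85%). The interaction of age and growth group had a median of 0.10 in this tissue, with 1 gene higher at an unadjusted p under 0.05, AURKA at 0.82, and 0 lower (2.85% and 2.67% of all genes), and 0 called by edgeR or DESeq2, where 0.00649% of all genes were called higher.

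Markers of some other cell types moved with age in the same hypothalamus libraries. Summed erythroid markers were at 61.6, 90.8 and 164 CPM at 6 weeks, against 201, 346 and 709 CPM at 3 weeks, and 2 of 3 were called lower. Summed fibroblast markers were at 219, 287 and 835 CPM, against 399, 744 and 1652 CPM, with 4 of 4 below 0, all at an unadjusted p under 0.05, and 0 called by edgeR and 1 by DESeq2. Summed pituitary endocrine markers were at 13.6, 107 and 485 CPM at 6 weeks, against 34.6, 334 and 925 CPM at 3 weeks, with 5 of 5 below 0 (median -1.64), 4 of them at an unadjusted p under 0.05 and 0 called by edgeR or DESeq2. Of the 6 markers of astrocytes and radial glia, 4 were above 0 (median 0.32), and 1 was called higher and 1 lower. FABP7, a marker of radial glia, which act as neural precursors, fell by 0.62 ± 0.12 on the log2 scale, and the astrocyte glutamate transporter SLC1A2 rose by 0.79 ± 0.19. EdgeR called 0 markers of lymphocytes (8 of 8 above 0, median 0.27), oligodendrocyte precursors (median -0.09) and endothelium (0.07). It also called 0 markers of oligodendrocytes (median 0.08) and of microglia and macrophages (0.01), and 0 of neurons (0.23). Of 4 pituitary stem and folliculostellate markers 1 was called lower, and their median was 0.15. In the pituitary the erythroid sums were 87.6, 179 and 1811 CPM at 6 weeks, against 222, 586 and 1805 CPM at 3 weeks. The part of these cells in the age differences was not tested.

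**Figure D5:**
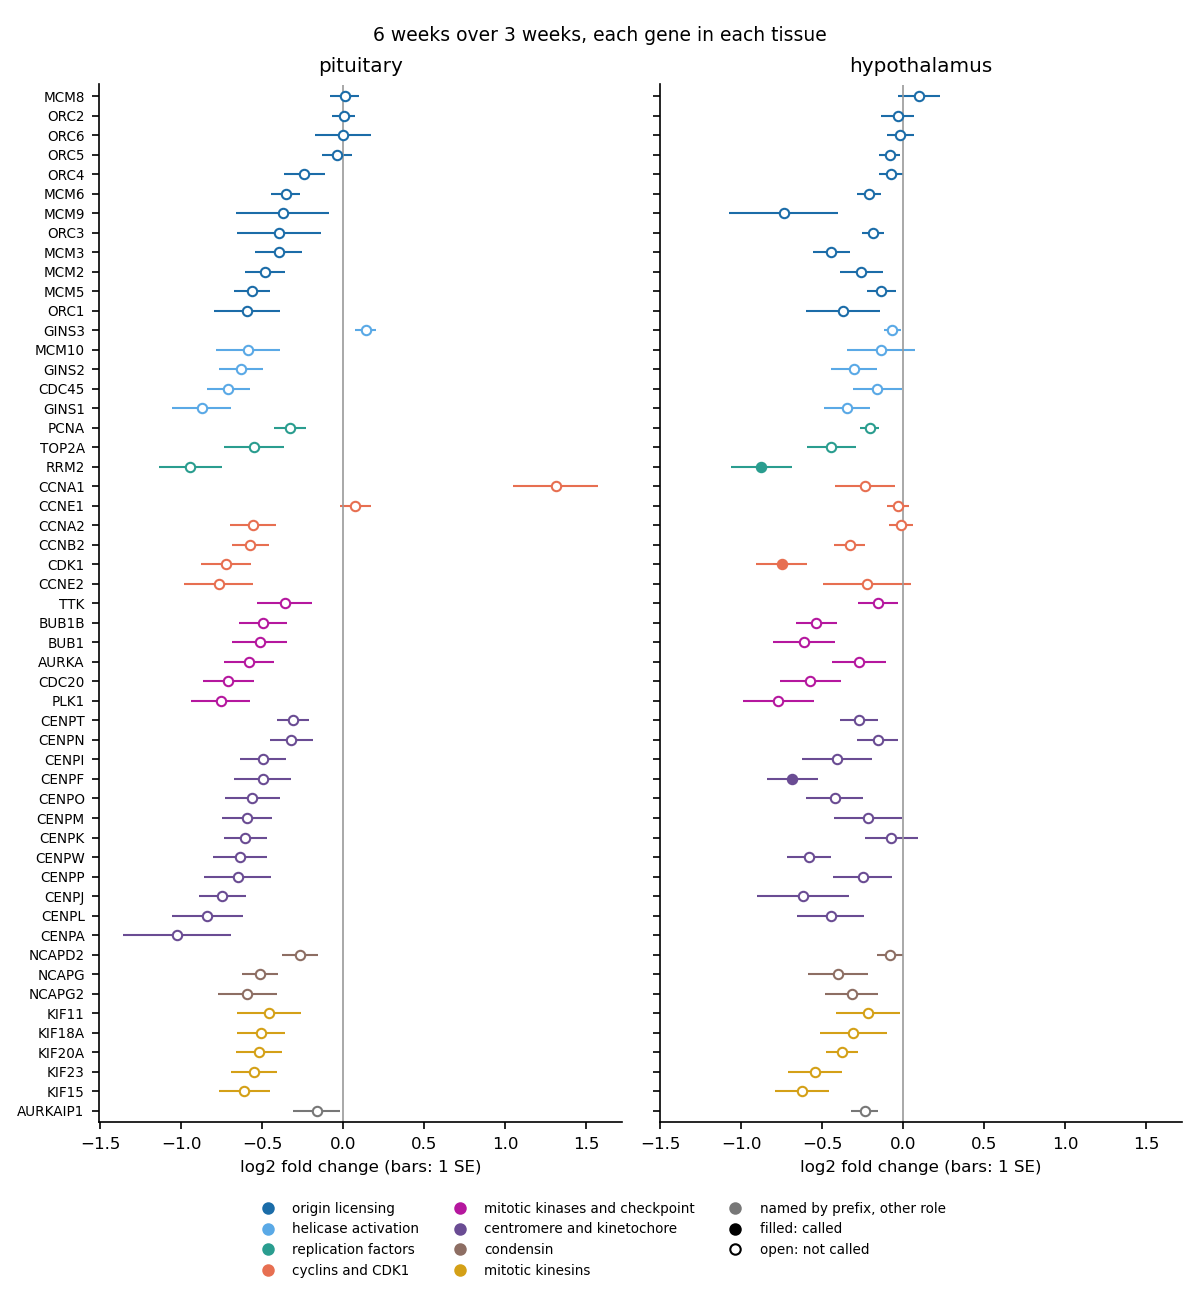
Log2 fold change (6 weeks over 3 weeks, with SE) of each gene in the pituitary and in the hypothalamus, grouped by role, with filled symbols for called genes. The filled symbols are RRM2, CDK1 and CENPF in the hypothalamus, and the medians are -0.52 in the pituitary and -0.27 in the hypothalamus.

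Whether the age difference itself differed between tissues was tested in 1 fit over the 32 libraries, as the pituitary change minus the hypothalamus change. EdgeR called 0 members (0.00618% of all genes higher, 0% lower). DESeq2 called 1, CCNA1, of 37 of 16169 genes called, 23 of them higher. At an unadjusted p under 0.05, 2 were higher and 5 lower (3.44% and 2.63% of all genes). CCNA1 had the largest value, 1.55 ± 0.34 (adjusted p 0.127 by edgeR and 0.0055 by DESeq2). Blocking on the bird in edgeR made it a call at 1.67 (adjusted p 0.0457), where 2 of 16169 genes were called. CCNA2 (-0.54), CDC45 (-0.55), MCM5 (-0.42), CENPK (-0.52) and GINS1 (-0.52) were the 5 lower genes, and GINS3 was at 0.21. CDK1 (0.03), BUB1 (0.10), CENPF (0.19), TOP2A (-0.11) and PCNA (-0.12) were not called, with SE of 0.11 to 0.26, nor were CCNB2 (-0.24), MCM2 (-0.22), AURKA (-0.31), NCAPG (-0.11) and KIF11 (-0.24).

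LGR against HGR birds of 1 age, the comparison the study made in the hypothalamus, called no member in either tissue at either age by edgeR. The study used DESeq2 after leaving out some hypothalamus libraries and reported differing genes at both ages. Its counts are therefore not comparable with those here. At 6 weeks in the pituitary, where 0% of 14826 genes were called, the median log2 fold change was 0.19 and 7 of 53 genes were below 0, against 50.1% of all genes. At an unadjusted p under 0.05, 0 were lower (3.12% of all genes) and 3 higher (3.65%): KIF15 (0.66 ± 0.17), CENPJ, a centriole assembly factor (0.73 ± 0.22), and CCNA1 (0.55 ± 0.21). KIF15 was at 14.5, 15.9, 10.9 and 16.8 CPM in LGR birds, against 8.69, 9.20, 11.3 and 7.85 CPM in HGR birds, and 1 LGR bird overlapped the HGR range. DESeq2 called 0. Leaving out 1 library, the number higher at that level was between 2 and 15 and the median between 0.073 and 0.30, the upper end of both without LGR replicate 3.

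At 3 weeks in the pituitary, where 0% of 14730 genes were called, the lean was the other way: the median was -0.25 and 44 of 53 genes were below 0, against 49.4% of all genes. At an unadjusted p under 0.05, 0 were higher (1.24% of all genes) and 9 lower (1.38%), namely RRM2, MCM5, MCM6, NCAPG, KIF23, PLK1, AURKA, BUB1B and TTK, and DESeq2 called 0. That count was between 2 (without HGR replicate 3) and 18 (without LGR replicate 3) when 1 library was left out, and 12 without the shallow library. RRM2 was at 67.5, 63.6, 74.5 and 73.1 CPM in LGR birds, against 91.6, 104, 115 and 82.6 CPM in HGR birds (-0.49 ± 0.13), and the groups did not overlap. Neither did they for NCAPG (-0.40 ± 0.15), MCM5, MCM6 and CENPI, 5 genes in all, where 1.45% of all genes separated in this direction. ORC3 had a positive value of 0.63 that rested on the shallow library, which held 134 CPM against 31.7 to 41.1 CPM in the other LGR birds, and was -0.12 without it.

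Lymphocyte markers were among those that followed the same pattern across these groups. Their summed lowest, median and highest levels in the pituitary were 84.4, 153 and 218 CPM in 6-week LGR birds, against 66.7, 70.1 and 88.7 CPM in 6-week HGR birds, and 60.2, 69.0 and 83.9 CPM in 3-week LGR birds, against 81.6, 136 and 244 CPM in 3-week HGR birds. All 8 markers were above 0 at 6 weeks (median 1.15) and all 8 below 0 at 3 weeks (median -1.08). EdgeR called 0 of them, 7 were higher at 6 weeks and 5 lower at 3 weeks at an unadjusted p under 0.05, DESeq2 called 3 higher at 6 weeks and 0 at 3 weeks, and their part in the lean of the division genes was not tested.

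In the hypothalamus at 6 weeks, where 0.0201% of 14944 genes were called higher and 0.114% lower, the median was 0.13. There were 7 members higher and 1 lower at an unadjusted p under 0.05, against 9.46% and 9.11% of all genes. KIF15 was at 5.21, 5.90, 3.54 and 3.73 CPM in LGR birds, against 1.62, 2.52, 2.48 and 2.33 CPM in HGR birds, without overlap. Its log2 fold change of 1.04 ± 0.23 had an adjusted p of 0.073 by edgeR. DESeq2 called 169 of 14944 genes, 119 of them higher, and KIF15 was the 1 member among them. ORC1, the largest ORC subunit, also separated the groups, as 5.11% of all genes did in this direction. In the same libraries lymphocyte markers were at 61.1, 89.2 and 145 CPM in LGR birds, against 46.2, 48.8 and 54.2 CPM in HGR birds, and microglia and macrophage markers at 840, 1326 and 2132 CPM, against 733, 792 and 917 CPM. Of 6 neuronal markers 5 were below 0 (median -0.38) and 4 were lower at an unadjusted p under 0.05, with 0 called. All 4 fibroblast markers were also below 0 (median -0.32). The part of these cells in these values was not tested.

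In the hypothalamus at 3 weeks, where 0% of 14980 genes were called, the median was 0.04. AURKA, at 3.14, 4.25, 2.71 and 2.72 CPM in LGR birds against 5.31, 5.20, 5.54 and 3.94 CPM in HGR birds (-0.64 ± 0.22), was the 1 gene lower at an unadjusted p under 0.05 (2.24% of all genes), and 0 were higher (3.57%). DESeq2 called 0. CCNA2 was at 17.9, 17.5, 17 and 17.9 CPM in LGR birds, against 18.5, 18.9, 24.3 and 20.4 CPM in HGR birds (-0.23 ± 0.12), a separation shown in this direction by 1.34% of all genes.

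None of the genes followed throughout was called between growth groups. In the pituitary at 6 weeks the log2 fold changes were 0.44 for TOP2A, 0.22 for CDK1, 0.11 for CCNB2, 0.08 for CCNA2, 0.07 for PCNA, 0.13 for MCM2, 0.13 for MCM5, 0.07 for CDC45, 0.37 for BUB1, 0.32 for AURKA, 0.42 for CENPF, 0.31 for NCAPG and 0.37 for KIF11. At 3 weeks they were -0.33 for TOP2A, -0.22 for CDK1, -0.22 for CCNB2, -0.48 for CCNA2, -0.08 for PCNA, -0.31 for MCM2, -0.39 for MCM5, -0.17 for CDC45, -0.45 for BUB1, -0.43 for AURKA, -0.52 for CENPF and -0.53 for KIF11. With NCAPG, all 13 were above 0 at 6 weeks and below 0 at 3 weeks, except that leaving out 1 library turned PCNA, MCM5 or CDC45 at 6 weeks to as low as -0.030, -0.015 or -0.039. The test of that difference is the interaction given above, which called none.

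Between growth groups in the hypothalamus at 6 weeks the log2 fold changes were 0.51 for TOP2A, 0.20 for CDK1, 0.22 for CCNB2, -0.16 for CCNA2, -0.0023 for PCNA (0.0017 with upper-quartile scaling), 0.10 for MCM2, 0.17 for MCM5, 0.17 for CDC45, 0.58 for BUB1, 0.19 for AURKA, 0.23 for CENPF, 0.14 for NCAPG and 0.71 for KIF11. At 3 weeks 11 of these 13 genes lay between -0.15 and 0.09, apart from AURKA and CCNA2. None of the 13 was called at either age.

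Within groups the genes varied together. Over the 16 pituitary libraries, the Pearson correlation of deviations from the group means averaged 0.346 over the 1378 gene pairs, against 0.0027 over all genes, and over the 16 hypothalamus libraries it averaged 0.229, against 0.0013. The members were taken as log2 of CPM plus 0.5 and all genes, after the filter, as log2 of CPM plus 2, so the scales differ slightly. The libraries are shared by all pairs, so that a library's depth or cell makeup enters every one of them. RRM2 (mean correlation with the other members 0.566) and KIF23 (0.551) were closest to the rest in the pituitary, and CDK1 (0.442) and RRM2 (0.425) in the hypothalamus. ORC2 (-0.314) and MCM9 (-0.207) in the pituitary and MCM8 (-0.180) in the hypothalamus ran apart from the others. Between the tissues of a bird the correlation of the mean deviation was 0.171 over 16 birds.

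Other genes of the cell cycle were counted by step where a symbol was matched. This held for 31 of 56 mitosis, 31 of 39 replication, 12 of 15 repair and 19 of 24 G1 genes listed. Of 31 further mitosis genes, 29 were higher and 1 lower in the pituitary than in the hypothalamus (median log2 fold change 1.62), the 1 lower being CIT, a citron kinase of cytokinesis. For 31 further replication genes the counts were 16 higher and 1 lower (0.60), for 12 genes of repair in S phase 6 and 1 (0.47), and for 19 regulators of G1 10 and 1 (0.68). Of all genes 25.7% were higher and 27.8% lower. Between 6 and 3 weeks in the pituitary edgeR called 0 of these genes, with 29 of 31 mitosis genes (median -0.56), 28 of 31 replication genes (-0.27), 11 of 12 repair genes (-0.26) and 10 of 19 G1 regulators (-0.0024) below 0. At an unadjusted p under 0.05, 23 mitosis, 17 replication, 5 repair and 3 G1 genes were lower, against 6.42% of all genes. DESeq2 called 11, 2, 3 and 2 genes of these lists lower, of 131 called lower among 15280. In the hypothalamus, where 0.363% of all genes were called lower, 5 mitosis genes fell, PBK (-0.62), NEK2 (-0.98), PRC1 (-0.63), RACGAP1 (-0.61) and UBE2C (-0.85). Of the 31 mitosis genes 28 were below 0 (median -0.41). Of the replication genes TK1, a thymidine kinase (-0.72), and HELLS, a chromatin remodeller (-0.61), fell, with 25 of 31 below 0 (-0.09), while 0 of 12 repair genes (median -0.15) and 0 of 19 G1 regulators (0.02) were called.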

How the data were processed

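RNA was measured in pituitary and hypothalamus of 16 birds with an unstranded TruSeq RNA v2 kit, so overlapping and antisense genes cannot be separated. According to the study's methods and the submitters' processing notes, CASAVA 1.8.2, FastQC, Flexbar, Bowtie2 and RSEM were used, and the authors deposited whole-number counts per Ensembl gene with symbols and gene coordinates (the other unit in the table), whose build that file does not name. Columns with the authors' own fold changes and p-values were not used. 0 columns of per-sample values were left unused. The study dropped some hypothalamus libraries after clustering, and all libraries were kept here.

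Genes were filtered with filterByExpr (minimum count 10, total 15) and tested with edgeR 4.0.16 (TMM, quasi-likelihood, Benjamini-Hochberg over all genes tested) in R 4.3.3 with data.table (version 1.17.8), on group means of a single tissue for age, on a single age and tissue for growth group and on all 32 libraries for tissue. Calls required both an adjusted p no larger than 0.05 and a 1.5-fold or larger difference. SE is the log2 fold change divided by the square root of F. CPM used TMM over all libraries. DESeq2 1.42.0, 2 other scalings, other filters, replicate and bird blocks and leaving out each library, or each bird in the fits over both tissues, were alternatives. The fit was tested on simulated data. The 2 libraries of a bird share its number in the labels, and their deviations correlated at 0.014 to 0.579, above 0.1 in 14 of 16 birds, so that the bird pairs the tissues. Replicates were separate birds: no 2 libraries of a group agreed within sampling noise (chi-square per gene 8.14 to 180 over 48 pairs).

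Named genes were TOP2A, CDK1, CCNB2, CCNA2, PCNA, MCM2, MCM5, CDC45, BUB1, AURKA, CENPF, NCAPG and KIF11 in every comparison, the 3 most changed called genes per direction, or fewer, genes called against the majority, and genes under the filter. Other names were picked after their values were seen. The members and lists were chosen with earlier results of these data known.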

Additional observations from a re-analysis of the deposited data

Results flagged for a closer look

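In a few groups of 4 birds 1 library lay far from the other 3, by the ratio of its gap to the range of the group. This was so in 7 of 112 groups looked at, and chance gives about 1 in 20. In 3-week LGR hypothalamus replicate 2, mitotic genes were high: BUB1 at 5.80 CPM, against 3.28 to 3.63 CPM in the others of its group, CDK1 at 20.8 CPM, against 13.3 to 14.2 CPM, and NCAPG at 9.75 CPM, against 3.91 to 4.38 CPM. The same library held the highest hypothalamus sums of erythroid (709 CPM), fibroblast (1652 CPM) and pituitary endocrine (925 CPM) markers and the highest 3-week hypothalamus sum of lymphocyte markers (85.8 CPM), whose part in these values was not tested. In 6-week HGR pituitary replicate 3, replication genes were high: MCM2 at 37.7 CPM, against 26.0 to 28.0 CPM, and PCNA at 141 CPM, against 116 to 120 CPM. CCNA2 was low in 6-week LGR pituitary replicate 3, at 7.69 CPM, against 11.8 to 12.6 CPM. The summed level of the 53 genes was low in 3-week HGR hypothalamus replicate 4, at 559 CPM, against 644 to 659 CPM.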

How the results depend on the processing

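The tissue counts were 45 called under the bird as replicate block, 45 to 46 without 1 bird, 44 to 45 at 6 weeks and 46 to 47 at 3 weeks. For age in the pituitary DESeq2 gave 16 in place of 0, and leaving out 1 library 0 to 5. For age in the hypothalamus the 3 calls became 5 by adjusted p alone, 7 by DESeq2, 5 with upper-quartile scaling, and 0 in LGR birds alone or HGR birds alone, with 0 to 6 without 1 library. Within growth groups DESeq2 gave 1 in LGR and 29 in HGR pituitaries and 1 in each hypothalamus group. Leaving out 1 library gave 0 to 5 in HGR pituitaries and 0 to 1 in LGR hypothalami. It gave 0 to 0 in the other within-group, interaction and growth comparisons, as did leaving out 1 bird for age by tissue. DESeq2 gave 1 for growth in the 6-week hypothalamus and 1 for age by tissue, as did the bird block. The cause of these shifts was not tested.

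Blocking on the replicate number left 0 calls for age in the pituitary, 3 in the hypothalamus and 0 in every growth comparison. Same-numbered LGR and HGR libraries correlated at a median of -0.006 (3 of 16 above 0.1) and same-numbered 6- and 3-week libraries in 7 of 16, so these numbers do not pair birds. Of 756 values of named genes under alternatives other than omissions, 739 kept direction and side of the threshold, 1 lost its call, 9 gained one and 7 changed sign, all near 0: in the 6-week hypothalamus between growth groups, PCNA at 0.0017 with upper-quartile scaling and 0.0013 with a minimum count of 30, and at 3 weeks CCNB2 at 0.0030 with upper-quartile scaling and MCM2 at 0.021, 0.0034, 0.017 and 0.0054 with upper-quartile scaling, a minimum count of 30, the replicate block and 1 fit over 16 libraries.

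Fits within a tissue left out 1 library at a time, and fits over both tissues left out 1 bird with both its libraries. Of 1440 such values, 1356 kept direction and side of the threshold, 31 lost their call, 5 gained one and 48 changed sign. The ranges of those that changed sign were, on the log2 scale, -0.045 to 0.031 for CCNA2 with age in the hypothalamus, and, between growth groups in the 6-week pituitary, -0.030 to 0.18 for PCNA, -0.015 to 0.27 for MCM5 and -0.039 to 0.21 for CDC45. In the 3-week pituitary ORC3 ranged over -0.12 to 0.84, and in the 6-week hypothalamus CDK1 over -0.089 to 0.38, PCNA over -0.056 to 0.033 and MCM2 over -0.028 to 0.22. In the 3-week hypothalamus the ranges were -0.11 to 0.16 for TOP2A, -0.10 to 0.14 for CDK1, -0.12 to 0.070 for CCNB2, -0.032 to 0.082 for PCNA, -0.14 to 0.10 for MCM2, -0.035 to 0.11 for MCM5, -0.12 to 0.013 for CDC45, -0.29 to 0.020 for BUB1, -0.11 to 0.24 for CENPF and -0.11 to 0.24 for KIF11. For age by tissue they were -0.24 to 0.032 for TOP2A, -0.11 to 0.17 for CDK1 and -0.059 to 0.23 for BUB1.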

Other observations

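MCM9, a helicase of homologous recombination in mammals, varied between birds in a way that both tissues shared. The same 5 birds, 3-week LGR birds 1 and 2, 3-week HGR birds 2 and 4 and 6-week LGR bird 3, held the 5 highest MCM9 levels in the pituitary and the 5 highest in the hypothalamus. Their pituitary levels were 13.2 to 20.6 CPM, against 3.05 to 9.39 CPM in the other 11 birds, and their hypothalamus levels were 6.44 to 8.31 CPM, against 1.69 to 3.98 CPM. These birds came from 3 of the 4 groups. No other member shared all 5 of its highest birds between tissues, and the most shared was 4. The correlation between tissues of the deviation from the group mean was 0.713 for MCM9 over 16 birds, 0.823 for ORC6 and 0.752 for ORC4, against a median of 0.228 over the 53 genes, and the lowest was -0.312. These genes were picked after their values were seen, the values are a description, and their source was not tested.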
